A study of Rattus norvegicus with 30 samples.

Results

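The nuclear-encoded subunits of the mitochondrial respiratory chain and of ATP synthase were followed in REF cells, a line of rat embryonic fibroblasts, as they were kept without serum. The genes were taken by symbol: the Ndufa, Ndufb, Ndufc, Ndufs and Ndufv families with Ndufab1 (complex I), Sdha to Sdhd (complex II), the Uqcr genes with Cyc1 (complex III), Cycs (cytochrome c), Cox4 to Cox8 (complex IV) and the Atp5 genes (ATP synthase), without symbols containing -ps. This gave 82 of the 17353 symbols measured, of which 36 belonged to complex I, 4 to complex II, 9 to complex III, 15 to complex IV and 17 to ATP synthase, besides Cycs. RNA sequencing covered 10 groups of 3 biological replicates: unstarved cells in serum (control), and cells starved of serum for 2, 3, 4, 6, 8, 10, 12, 14 or 16 days. All groups were the same untransformed line, so every result holds for this 1 line in culture. The question put by the series title is how quiescence deepens with time, and the title names the lysosome as its graded switch.

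Electrons from NADH enter the chain at complex I and those from succinate at complex II. They pass through coenzyme Q to complex III, along cytochrome c to complex IV and finally to oxygen, while complexes I, III and IV pump protons across the inner membrane. ATP synthase lets the protons flow back through its membrane ring and makes ATP in its soluble F1 head. Complexes I, III, IV and V also hold subunits encoded in mitochondrial DNA, which were not analysed here.

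Levels are given in FPKM, the fragments of a transcript relative to its length in kilobases and to all mapped fragments. Changes are differences in log2(FPKM + 1) with their standard error (SE), and a gene was called higher or lower at an adjusted p under 0.05 (limma, adjusted over all 8940 genes with a mean of at least 1 FPKM). Of the 82 genes, 74 reached that mean: 33, 4, 9, 11 and 16 of complexes I, II, III, IV and ATP synthase, and Cycs. The other 8 were Ndufa1 and Cox6b2, listed at 0 in all 30 libraries, and Ndufa4l2, Ndufa10l1, Cox4i2, Cox8b, Cox8c and Atp5f1, whose means lay between 0.0522 and 0.395 FPKM. Ndufa1 encodes a subunit of complex I that cells need, so its 0 may be a failed estimate, and Atp5f1 is the older symbol of the gene for the b subunit of the ATP synthase stalk, to which the same applies. FPKM sums ran from 582501 to 785072 and 9875 to 10580 genes per library were above 0. Of a fibroblast marker list, Vim (4933 ± 339 FPKM, SD, n = 3), Col1a1 (2324 ± 216) and Col3a1 (1770 ± 44.6) were abundant in control cells, whereas Col1a2 was listed at 0 and Thy1 reached at most 0.23 FPKM. No gene of the macrophage, endothelium or adipocyte lists reached the mean of 1 FPKM over all 30 libraries, and of the epithelium and neural lists 1 gene each did. These were Krt8, at 11.7 ± 1.08 FPKM in control and 68 ± 7.01 at day 16, and Tubb3, at 5.84 ± 0.747 and 1.77 ± 0.409. Of the macrophage list, Csf1r stood at 4.33 ± 0.292 FPKM in control and 0.21 ± 0.0855 at day 2, and Cd14 at 2.82 ± 0.46 and 1.59 ± 0.125. The other genes of that list were at most 0.164 FPKM in any library. Myod1, a muscle regulator, stood at 237 ± 19.1 FPKM in control cells and 3.51 ± 0.965 at day 2. Whether these markers bear on the values below was not tested.

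Promoters are shown for 5 of the genes whose transcripts fell at day 2, each of which holds a match to a motif below. The factors that bind such sites are among the genes measured. NRF-1 and GABP, an ETS factor, bind the promoters of many respiratory genes, as does the oestrogen-related receptor ERR. The sequences are the 165 bases before the start site in RefSeq, build GRCr8, on the gene's strand, 5′ to 3′. They come from chr4:80984768-80984932 (minus strand), chr8:118468058-118468222 (plus), chr9:1637449-1637613 (plus), chr10:38089979-38090143 (minus) and chr3:79220665-79220829 (minus, under the newer symbol Atp5mc3). Capitals mark matches, on either strand, to GCGCATGC (NRF-1) in Cycs, Uqcrc1 and Ndufa11, CCGGAAGT (ETS/GABP) in Uqcrq and TCAAGGTCA (ERR) in Atp5g3.
Cycs: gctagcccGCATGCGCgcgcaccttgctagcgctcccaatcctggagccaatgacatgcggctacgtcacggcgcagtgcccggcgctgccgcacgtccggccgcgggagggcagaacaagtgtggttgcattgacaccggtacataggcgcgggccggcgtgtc
Uqcrc1: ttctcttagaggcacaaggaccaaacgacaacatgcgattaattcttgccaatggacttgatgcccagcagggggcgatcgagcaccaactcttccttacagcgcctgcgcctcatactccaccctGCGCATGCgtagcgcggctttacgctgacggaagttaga
Ndufa11: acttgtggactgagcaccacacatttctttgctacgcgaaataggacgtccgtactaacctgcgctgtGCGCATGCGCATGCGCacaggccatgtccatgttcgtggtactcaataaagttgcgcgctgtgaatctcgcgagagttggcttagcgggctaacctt
Uqcrq: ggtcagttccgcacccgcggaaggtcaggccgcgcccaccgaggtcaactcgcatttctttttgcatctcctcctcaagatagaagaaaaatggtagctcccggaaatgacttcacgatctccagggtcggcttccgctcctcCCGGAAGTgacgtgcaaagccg
Atp5g3: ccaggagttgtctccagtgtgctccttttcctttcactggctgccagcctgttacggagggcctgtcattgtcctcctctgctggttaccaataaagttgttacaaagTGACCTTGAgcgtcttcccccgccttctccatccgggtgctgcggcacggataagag

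The match in Cycs lies 157 to 150 bases before the start, that in Uqcrc1 39 to 32, that in Uqcrq 22 to 15 and that in Atp5g3 57 to 49. In Ndufa11 4 matches overlap, since the letters read nearly alike on both strands, and they fill the bases from 97 to 82 before the start. Promoters of 250 bases before to 50 after the start were found for 70 of the 82 genes, 55 by symbol and 15 by an older name. Of these, 10 (14.3%) held the NRF-1 letters, against 3.23% of 19005 promoters of protein-coding genes. The ETS/GABP letters were in 7 (10%, against 4.99%), the ERR letters in 2 (2.86%, against 0.353%) and AAGATGGC, a YY1 motif, in 15 (21.4%, against 3.92%), of which 10 lay only after the start. Split by the change at day 2, the NRF-1 letters were in 15.2% of the 33 promoters of genes lower at day 2 and in 12.9% of the 31 of tested genes that were not, the ETS/GABP letters in 15.2% and 6.45%, the ERR letters in 6.06% and 0%, and the YY1 letters in 18.2% and 25.8%. Atp5b, Atp5d and Ndufab1, which were also lower at day 2, held none of these motifs. These shares describe letters in a window and were not tested, nor was any link between a motif and a change.

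After 2 days without serum, 37 of the 74 tested genes were lower than in control and 5 were higher. Over all tested genes, 30.7% were called lower and 30% higher, so the share of these genes that was lower was above the background and the share that was higher was below it. The median change was -0.321 on the log2(FPKM + 1) scale, while the median of all tested genes was 0. The lower genes were 16 of 33 in complex I, 3 of 4 in complex II, 7 of 9 in complex III, Cycs, 3 of 11 in complex IV and 7 of 16 of ATP synthase. Of the 5 higher genes, 3 (Cox7a2l, Atp5s and Atp5sl) match the symbols but are not subunits. The others were Ndufv3 and Cox6a2, the latter at low levels. In bulk RNA, fewer cells of a type and less RNA per cell cannot be told apart, and no group here separates the loss of serum from leaving the cell cycle. With the replicate 3 libraries of all groups left out, 23 genes were lower, and with those of replicate 2 left out, 3 were higher. Shares over all tested genes were not computed for fits with libraries left out, here or below. Such counts therefore cannot be set against a background. After quantile normalization the split was 30 lower and 10 higher, against 27.9% and 33.2% of all tested genes.

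**Figure D1:**
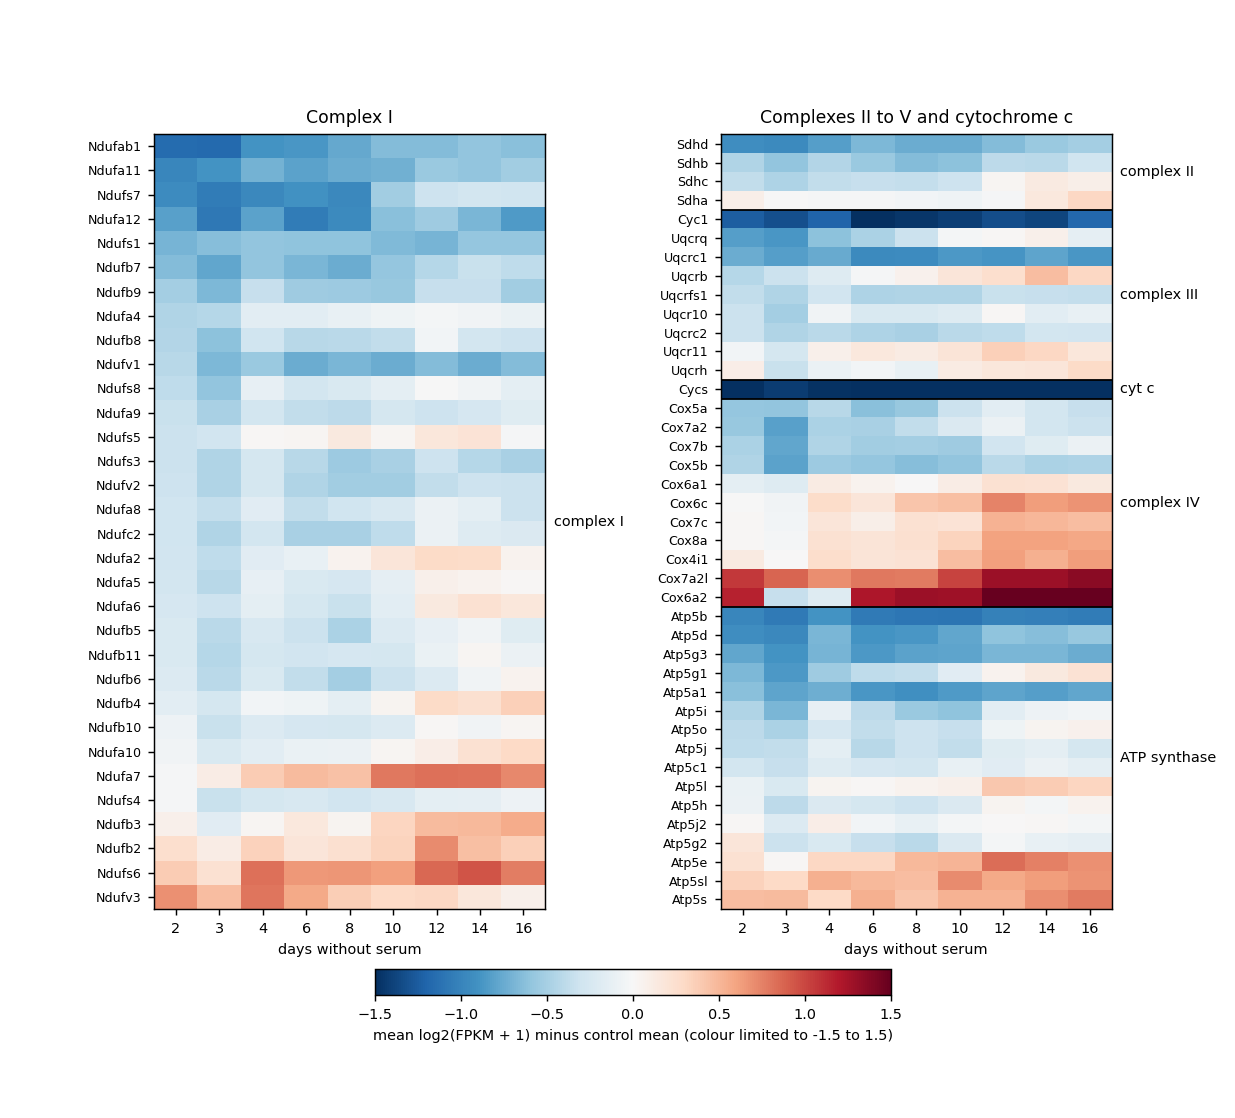
Mean log2(FPKM + 1) of the tested genes, except 1 that is not reported here, at 2 to 16 days without serum, minus its control mean (n = 3 libraries per group; blue lower, red higher; genes sorted by day 2 within each complex). Cycs, Cyc1 and Atp5b stay blue throughout, Cox7a2l stays red, and many genes of complex I turn from blue towards white or red from day 12. In complex IV, Cox4i1, Cox6c, Cox7c and Cox8a go from near white at day 2 to red.

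The electron carriers fell furthest. Cycs encodes cytochrome c, the soluble carrier between complexes III and IV that also starts caspase activation when it leaks into the cytosol. Its levels in control were 252, 256 and 266 FPKM, and at day 2 they were 86.3, 84.3 and 84.5. The groups did not come near each other, and the fall was 3.01-fold (log2 change -1.59, SE 0.097, limma adjusted p = 2.56e-13). Cycs did not recover: it was 64.9, 73.5 and 78 FPKM at day 16 (log2 change against control -1.83), and its slope over days 2 to 16 was negative (-0.30 over 14 days, limma adjusted p = 0.00125). Cycs has many processed copies in rodent genomes, so some of its reads may have been assigned elsewhere. Cyc1 encodes cytochrome c1, the haem subunit of complex III that hands electrons to cytochrome c. It fell from 291, 242 and 242 FPKM in control to 122, 107 and 98.5 at day 2 (log2 change -1.24, SE 0.087, limma adjusted p = 3.93e-12) and stood at 117, 116 and 108 at day 16. No starved library of Cyc1 at days 2 or 16 reached the control range.

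The rest of complex III split in its later course. Uqcrc1 and Uqcrfs1, a core protein and the Rieske iron-sulfur protein, fell and stayed low. Uqcrc1 was 192, 162 and 157 FPKM in control, 107, 99.1 and 96 at day 2, and 90.1, 101 and 85.6 at day 16. Its 3 control libraries lay above all of these. Uqcrfs1 went from 170 ± 10.4 FPKM (SD, n = 3) to 132 ± 7.43 and was at 132 ± 6.55 at day 16. Uqcrq, a small membrane subunit, was 104, 77.6 and 70.5 FPKM in control, 68.9, 41.4 and 35.2 at day 2, and 80, 65.7 and 80.8 at day 16. Its groups did not overlap at day 2 (log2 change -0.82, SE 0.193, limma adjusted p = 0.000683), while at day 16 they did (-0.14, adjusted p = 0.534; 0.022 without control replicate 1). Uqcrq had the steepest slope of complex III, 0.91 over 14 days (limma adjusted p = 3.7e-06), followed by Uqcrb (0.82). Uqcrb was 86 ± 6.54 FPKM in control, 64 ± 11.5 at day 2 and 108 ± 14.4 at day 16. It was called lower at day 2 and higher at day 16, but the calls were lost in 3 and 9 of 18 alternatives respectively, among them leaving out the day 2 replicate 3 library (limma adjusted p up to 0.083) and 4 single libraries of control or day 16 (up to 0.368 over all alternatives). Uqcr11 was the least changed of complex III at day 2 (741 ± 21.8 and 721 ± 69.9 FPKM; limma adjusted p = 0.758), and with quantile normalization it was higher (0.175, adjusted p = 0.0335).

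**Figure D2:**
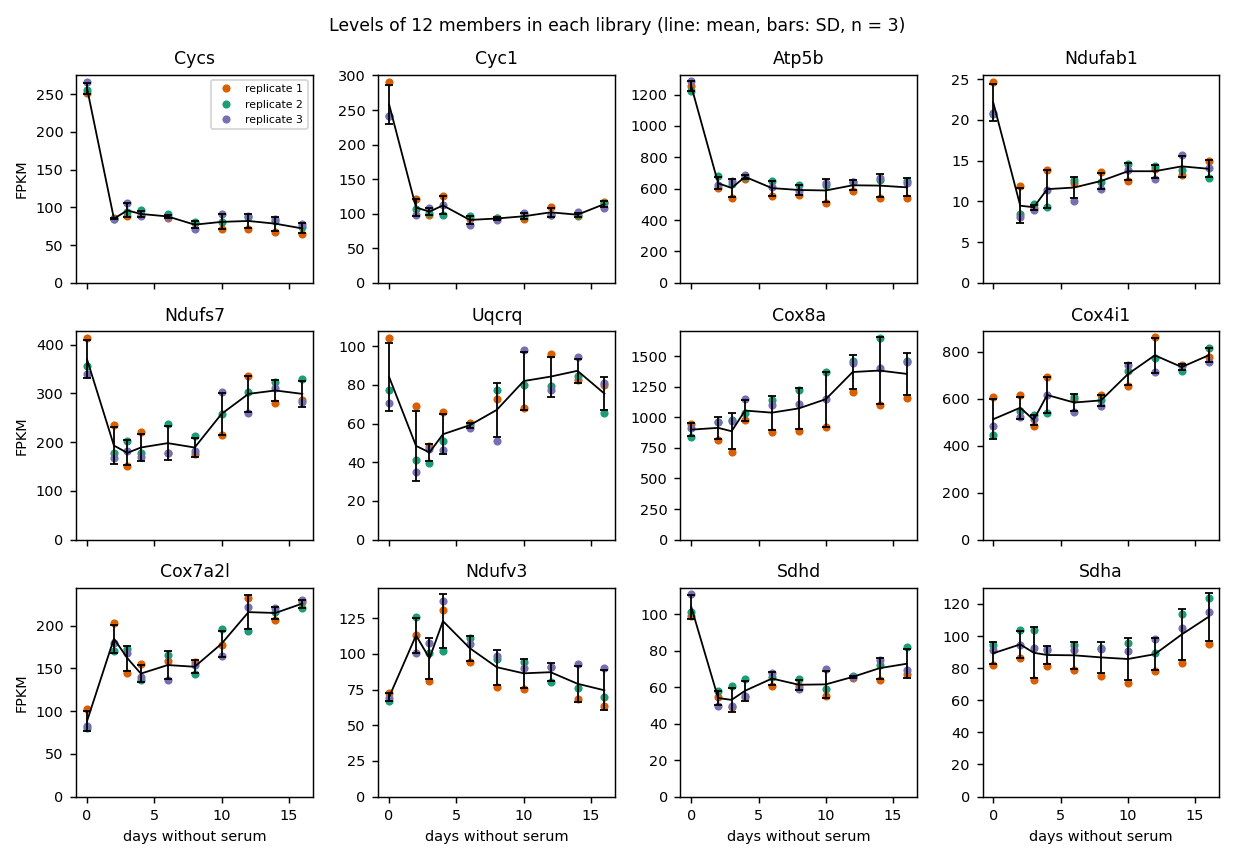
FPKM of 12 of the genes in each library against days without serum, with day 0 the unstarved control (points coloured by replicate, line the mean, bars the SD of 3 libraries). Cycs, Cyc1 and Atp5b drop at day 2 and stay low, Ndufs7 climbs again after day 8 and Uqcrq from day 4, and Cox4i1, Cox8a and Cox7a2l are highest late.

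In complex I, all 7 genes of the core subunits, which hold the flavin and the iron-sulfur clusters, were lower at day 2, and 5 of the 7 were lower at day 16, when 30.7% and 35% of all tested genes were. Ndufs1, the large subunit with several iron-sulfur clusters, was 78.4, 94.9 and 94.9 FPKM in control, 48.1, 57.8 and 58 at day 2, and 53.9, 63.2 and 61.2 at day 16. Control and starved values did not overlap. Ndufv1, which binds NADH, fell from 126 ± 12.1 FPKM (SD, n = 3) to 93.6 ± 6.44 and then to 79.4 ± 3.9 at day 16. Its slope of -0.16 over 14 days did not pass (limma adjusted p = 0.0603), though it passed in 12 of 49 alternatives, among them the fits without single libraries of days 3, 6, 12 or 16. Ndufs7, which carries the last iron-sulfur cluster before coenzyme Q, took the other course. It stood at 414, 356 and 339 FPKM in control, 236, 177 and 167 at day 2, and 287, 329 and 282 at day 16. The day 2 libraries were all below control (log2 change -0.94, SE 0.149, limma adjusted p = 5.86e-06), and the slope afterwards was 0.87 over 14 days (adjusted p = 3.83e-07). At day 16 its difference from control was -0.30 (adjusted p = 0.077, and 0.0274 when libraries were rescaled to equal sums).

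Among the accessory subunits of complex I, Ndufab1, the mitochondrial acyl carrier protein, had the largest fall at day 2. It was 24.7, 20.7 and 20.8 FPKM in control and 11.9, 8.42 and 8.06 at day 2, with no overlap (log2 change -1.16, SE 0.128, limma adjusted p = 2.02e-08), and reached 14 ± 1.03 FPKM at day 16. Ndufa11, a membrane-arm subunit, fell from 457 ± 58.8 to 232 ± 24.6 FPKM and was at 317 ± 18 at day 16. Ndufa4, once counted in complex I and now placed with complex IV, fell from 193 ± 12 to 141 ± 7.35 FPKM and was at 181 ± 22.7 at day 16. The day 2 call of Ndufa4 was lost without the replicate 3 libraries (limma adjusted p = 0.0742), and its slope of 0.34 was lost without the replicate 2 or the replicate 3 libraries and after rescaling to equal sums (adjusted p up to 0.0931). Ndufv3 was the only tested gene of complex I that was higher at day 2. It encodes a small subunit beside the NADH-binding one, and its levels were 72.7, 67.1 and 69.4 FPKM in control, 113, 126 and 101 at day 2, and 63.4, 69.8 and 90.4 at day 16. It rose without overlap (log2 change 0.69, SE 0.142, limma adjusted p = 0.000176) and then declined (slope -0.60 over 14 days, adjusted p = 3.39e-05). Its difference at day 16 was 0.08 and did not pass (adjusted p = 0.636), turning to -0.07 without the day 16 replicate 3 library. Ndufa7, an accessory subunit, was near its control level at day 2 (183 ± 30.3 and 179 ± 18.4 FPKM) and reached 299 ± 25 FPKM at day 16.

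Complex II, which is also the succinate dehydrogenase of the citric acid cycle, had lower transcripts of its iron-sulfur and membrane subunits at day 2, 3 of 4 genes (background 30.7%), while its flavoprotein did not pass. Sdhd, a membrane anchor, was 99.1, 101 and 111 FPKM in control, 54.5, 57.6 and 49.9 at day 2, and 67.3, 81.8 and 69.2 at day 16. These starved values all lay below control (day 2 log2 change -0.93, SE 0.096, limma adjusted p = 6.32e-09). Sdhb, the iron-sulfur subunit, went from 122 ± 9.24 to 89.1 ± 8.5 and 99.4 ± 8.6 FPKM at days 2 and 16, and Sdhc, the other anchor, from 194 ± 17.2 to 150 ± 12.5 and 206 ± 21.6. The day 2 call of Sdhc was lost without the replicate 3 libraries (limma adjusted p = 0.09), and the day 16 call of Sdhb in 5 of 18 alternatives, among them without control replicate 1 or day 16 replicate 1 (adjusted p up to 0.217). Sdha, the flavoprotein, was 81.8, 94.7 and 91.5 FPKM in control and 86.6, 104 and 94.2 at day 2, and the groups overlapped (log2 change 0.08, limma adjusted p = 0.62). At day 16 Sdha was 95.1, 124 and 115 FPKM, a difference of 0.31 that did not pass (limma adjusted p = 0.05 when rounded). It passed in 8 of 18 alternatives, among them the fit with the replicate number as a block (adjusted p = 9.07e-05) and that without the day 16 replicate 1 library.

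In complex IV, 3 of the 11 tested genes were lower at day 2 and 2 were higher, the first share close to the 30.7% of all tested genes and the second below the 30%. The median change was -0.004, and its difference from the other complexes was not tested. Cox5a, a matrix-side subunit, fell from 418, 346 and 406 FPKM to 256, 265 and 258, and was 272, 323 and 325 at day 16. Its day 2 values were all below control (log2 change -0.58, SE 0.107, limma adjusted p = 4.85e-05), while its day 16 call was lost without the day 16 replicate 1 library (adjusted p up to 0.0704). Cox5b and Cox7b, a zinc-binding and a small membrane subunit, were lower at day 2 by -0.45 and -0.48. The call of Cox5b (731 ± 30.1 to 533 ± 3.45 FPKM; limma adjusted p = 0.0487) was lost in 12 of 18 alternatives, among them without any of the 3 control libraries. The call of Cox7b was lost without control replicate 3 or day 2 replicate 1 (adjusted p up to 0.153). Cox7a2 was 593, 665 and 857 FPKM in control and 392, 548 and 477 at day 2, and narrowly did not pass (log2 change -0.57, limma adjusted p = 0.0522), though it did with the replicate number as a block (adjusted p = 0.000393) and when control replicate 1 or the second library of day 2 was left out.

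Cox4i1, Cox6c and Cox8a did not pass at day 2 and were higher at day 16. Cox4i1, the regulatory subunit common to most tissues, was 609, 445 and 486 FPKM in control, 615, 550 and 522 at day 2, and 779, 818 and 758 at day 16. Of these, the last group stood apart from control (log2 change 0.62, SE 0.1, limma adjusted p = 5.44e-06). At day 2 its change was 0.14 (adjusted p = 0.235), which passed without control replicate 1 (adjusted p down to 0.0123 over all alternatives). Cox8a went from 899 ± 51 FPKM in control to 914 ± 87.9 at day 2 and 1355 ± 173 at day 16, and Cox6c from 638 ± 118 to 630 ± 42.1 and 1014 ± 135. The day 16 call of Cox8a was lost without the replicate 3 libraries (limma adjusted p = 0.0685). The ubiquitous Cox6a1 was 920 ± 40.9 FPKM in control and 1026 ± 167 at day 16, which did not pass (limma adjusted p = 0.402) except without the replicate 1 libraries (0.0032). Its muscle form Cox6a2 stayed far below it, at 1.03, 0 and 3.87 FPKM in control, 2.07, 6.39 and 3.83 at day 2, 10.9, 22.4 and 20.1 at day 12, and 9.45, 14.6 and 3.99 at day 16. The control and day 2 values of Cox6a2 overlapped, and its day 2 call (log2 change 1.16, limma adjusted p = 0.0298) was lost in 7 of 18 alternatives (limma adjusted p up to 0.61), and leaving out either of the first 2 control libraries or either of the last 2 at day 2 was enough to lose it. Of 9 skeletal muscle markers only Myod1 and Tnnt3 reached the mean of 1 FPKM. Tnnt3 went from 2.07 ± 0.526 to 6.67 ± 2.55 FPKM at day 2, and Acta1, Myh3 and Ckm were at most 1.16, 0.105 and 0.306 FPKM in any library. The summed level of the 8 markers measured ran from 221 to 257 FPKM in control, nearly all of it Myod1 (237 ± 19.1). This sum was 7.58 to 13.7 at day 2, 5.33 to 13.6 at day 12 and 5.06 to 9.54 at day 16. The part of these markers in the values of Cox6a2 was not tested. Cox4i2 and Ndufa4l2, forms known from low oxygen, were at most 0.859 and 0.386 FPKM in any library, while 6 of 7 tested genes of a low-oxygen list were higher at day 2 and all 7 at day 16, when 30% and 32.4% of all tested genes were. Vegfa, for instance, was 19.2 ± 1.2 FPKM in control, 100 ± 9.98 at day 2 and 319 ± 12.2 at day 16. Cox7a2l, which joins complexes III and IV into supercomplexes and is no subunit in the strict sense, was 102, 79.9 and 82.7 FPKM in control, 203, 171 and 180 at day 2, and 228, 221 and 230 at day 16. It rose 2.09-fold at day 2 with no overlap (log2 change 1.06, SE 0.097, limma adjusted p = 6.42e-10).

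In ATP synthase, 4 of the 5 genes of the F1 head were lower at day 2, when 30.7% of all tested genes were. Atp5b, the catalytic beta subunit and the transcript with the highest control mean of the 74, was 1253, 1223 and 1289 FPKM in control, 603, 679 and 624 at day 2, and 542, 647 and 638 at day 16. Every starved library shown lay below every control (day 2 log2 change -0.98, SE 0.097, limma adjusted p = 2.53e-09), and the slope from day 2 on was -0.06 (adjusted p = 0.538). Atp5a1, the alpha subunit, went from 496 ± 15.7 to 321 ± 13.2 and 288 ± 22.5 FPKM at days 2 and 16, and Atp5d, the delta subunit, from 748 ± 86.5 to 390 ± 36.5 and 501 ± 18.1. Atp5c1, the gamma subunit of the central stalk, fell less, from 236 ± 7.59 to 195 ± 5.09 FPKM, and its call (limma adjusted p = 0.0398) was lost in 11 of 18 alternatives, among them without any of the 3 control libraries. Atp5e, the epsilon subunit, was 451 ± 120 FPKM in control, 517 ± 65.1 at day 2 and 711 ± 64.8 at day 16. Atp5s and Atp5sl, which the symbols include but which are not subunits, were both higher at day 2 at low levels (2.91 ± 0.251 to 4.44 ± 0.918 and 14.4 ± 1.11 to 18.6 ± 2.23 FPKM). The call of Atp5s was lost without the replicate 1 libraries and that of Atp5sl without those of replicate 2 (limma adjusted p = 0.108 and 0.132).

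The 3 genes of the c subunit, whose ring turns as protons pass, encode 1 and the same mature protein behind different import sequences, and they took 3 courses. Atp5g3 was 417, 349 and 347 FPKM in control, 234, 210 and 200 at day 2, and 217, 234 and 213 at day 16, so it fell and stayed low (day 2 log2 change -0.78, SE 0.085, limma adjusted p = 1.32e-08). Atp5g1 was 273, 206 and 219 FPKM in control, 191, 141 and 112 at day 2, and 272, 272 and 263 at day 16. It fell without overlap (-0.68, SE 0.164, adjusted p = 0.000937), and its slope of 1.02 over 14 days (limma adjusted p = 1.21e-08) was the steepest of ATP synthase. Atp5g2, the most abundant of them, was 770, 745 and 819 FPKM in control, 813, 933 and 913 at day 2, and 580, 786 and 780 at day 16, with control and day 16 overlapping. Its day 2 change of 0.19 did not pass (adjusted p = 0.325), but it did with quantile normalization and without the replicate 1 libraries (limma adjusted p down to 0.0113). Of the summed FPKM of these 3 genes, Atp5g2 held 56.4% ± 3.29 (SD, n = 3) in control and 71% ± 4.65 at day 2, Atp5g3 26.8% ± 1.76 and 17.2% ± 1.48, and Atp5g1 16.8% ± 1.65 and 11.8% ± 3.21. At day 16 Atp5g1 held 22.5% ± 2.59, above its control share, and Atp5g3 held 18.4% ± 1.69. These genes have processed copies, so reads may have been split between near-identical sequences.

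**Figure D3:**
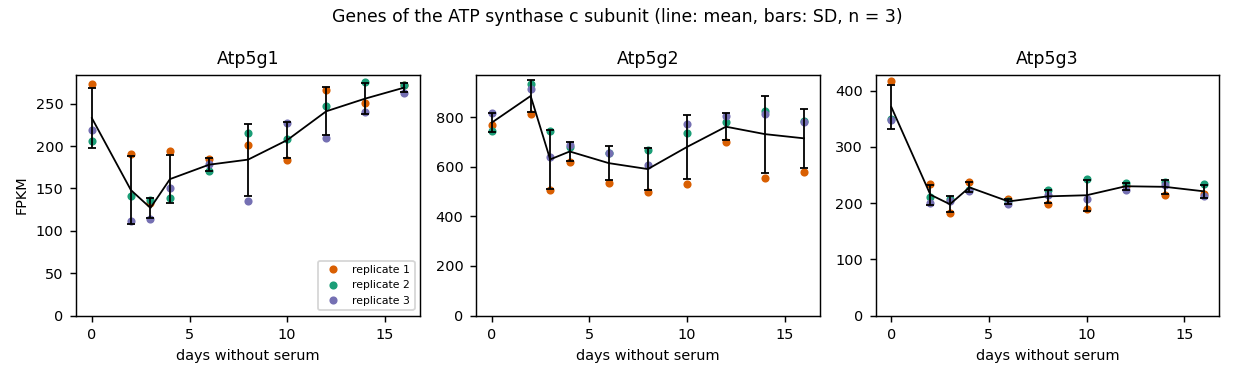
FPKM of Atp5g1, Atp5g2 and Atp5g3 in each library against days without serum (day 0 is control; points coloured by replicate, line the mean, bars the SD of 3 libraries; axes start at 0). Atp5g3 drops once and stays near 221 FPKM, Atp5g1 drops and returns to 269, and Atp5g2 stays above both.

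At day 8, 38 of the 74 genes were lower than in control and 9 were higher, against a background of 34.5% and 33.4% of all tested genes. The share lower was thus above the background and the share higher below it. The set of higher genes shrank to 4 without control replicate 2 and grew to 14 with quantile normalization, which left 32 lower. With that normalization 36.7% of all tested genes were higher and 31.7% lower. Between days 2 and 8, 7 genes were lower and 6 higher (background 18.4% and 17.4%), shares below the background. These counts moved with single libraries: 3 genes were lower without day 2 replicate 1 and 4 without day 8 replicate 3, and 3 were higher without day 2 replicate 2 or 3. After rescaling to equal sums, 2 were lower and 12 higher, against 13.1% and 23.3% of all tested genes. Atp5g2 had the largest fall over these days (log2 change -0.59, limma adjusted p = 0.00482) and Uqcrb and Uqcrq the largest rises (both 0.50, adjusted p = 0.00523 and 0.0455). The calls of Atp5g2 and Uqcrb were lost without the replicate 3 libraries and that of Uqcrb also without those of replicate 2 (limma adjusted p up to 0.0777 and 0.179), and that of Uqcrq in 11 of 18 alternatives, among them without replicate 2 or 3 of day 2 or replicate 1 or 2 of day 8 (up to 0.491). All comparisons with control share the same 3 control libraries.

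At later days without serum, the means of many of these transcripts were higher than at day 3. Of the 74 genes, 45 had their lowest starved mean at day 3, and 22, 18 and 21 had their highest at days 12, 14 and 16. The number whose mean lay below control was 58 at day 2, 65 at day 3, 54 at day 8, 42 at day 12 and 43 at day 16. Shares over all tested genes were not computed for these counts. The median difference from control was -0.321 at day 2, -0.423 at day 3, -0.318 at day 8, -0.055 at day 12 and -0.094 at day 16. By library, the day 3 median was -0.603 in replicate 1, and -0.377 and -0.388 in replicates 2 and 3. That replicate 1 library had the lowest FPKM sum of all, 582501. As a share of all FPKM, the 82 genes held 3.31% ± 0.142 (SD, n = 3) in control, 2.69% ± 0.08 at day 2, 2.53% ± 0.103 at day 3 and 3.09% ± 0.13 at day 16.

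**Figure D4:**
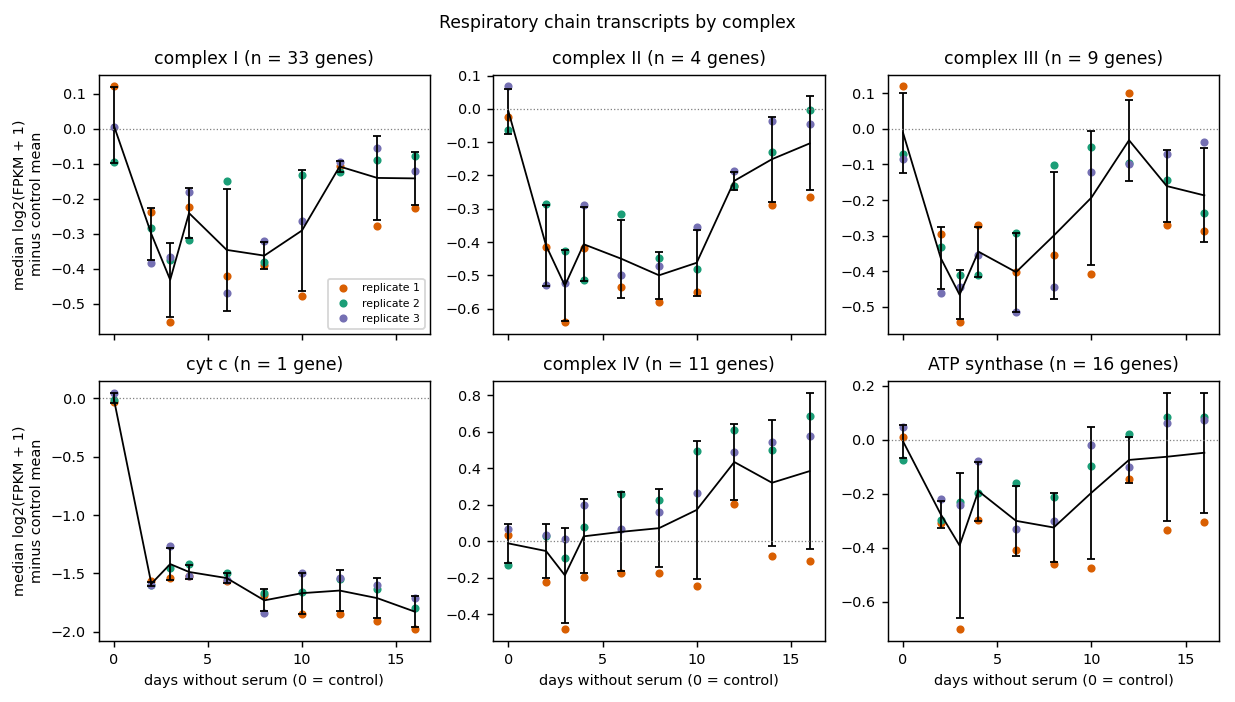
Median log2(FPKM + 1) minus the control mean over the tested genes of each complex, per library, against days without serum (points coloured by replicate, line the mean and bars the SD of 3 libraries; dotted line at control; n is the number of genes). Complexes I, II and III and ATP synthase dip and climb back towards 0, cytochrome c stays low, and the replicate 1 libraries of complex IV and ATP synthase lie below the others at every starved time point.

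Over days 2 to 16, 45 of the 74 genes had a positive slope that passed and 2 a negative one, against 26.6% and 28.9% of all tested genes. The share that rose was above the background and the share that fell below it. The median slope was 0.322 over 14 days, and that of all tested genes was -0.017. The genes that rose were 19 of 33 in complex I, 2 of 4 in complex II, 5 of 9 in complex III, 10 of 11 in complex IV and 9 of 16 of ATP synthase, and the 2 that fell were Cycs and Ndufv3. Rescaling all libraries to equal sums shifted the median of all genes by -0.123 and left 30 that rose and 7 that fell. With that scaling 17.6% of all tested genes rose and 36.4% fell. Without single libraries or replicate numbers, between 30 and 52 genes rose. An F test for any difference among the 9 starved groups called 42 of the 74 genes, against 61.5% of all tested genes, so the members did not exceed the background here. It called 19 without the replicate 2 libraries and 15 without those of replicate 3, with no matching share of all tested genes computed.

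Day 16 against day 8 gave 19 higher and 0 lower genes (background 15.8% and 14.4%), with a median of 0.218. Of the genes past the threshold with limma, Ndufs7 (0.66), Atp5g1 (0.58) and Cox7a2l (0.57) had the largest rises. Cox6a2 rose more (0.84) but did not pass (limma adjusted p = 0.169). The call of Atp5g1 was lost in 4 of 18 alternatives, among them without the day 8 replicate 3 library (limma adjusted p up to 0.132). At an unadjusted p under 0.05, 31 were higher and 0 lower. For the 0 lower genes, single alternatives gave 1 without day 16 replicate 3, 1 with quantile normalization and 2 after rescaling to equal sums. The 19 became 11 without day 16 replicate 2 and 30 after rescaling by the upper quartile (17.5% of all tested genes higher). After rescaling to equal sums 5 were left, and the median of all genes shifted by -0.162. With that scaling 8.18% of all tested genes were higher and 27.5% lower, so the share of these genes that was higher did not exceed the background.

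Against control, 24 of the 74 genes were lower at day 16 and 13 were higher, while 35% and 32.4% of all tested genes were. Both shares were close to or below the background. All 24 were also lower at days 2 and 8, and they included Cycs, Cyc1, Uqcrc1, Uqcrfs1, Ndufs1, Ndufv1, Sdhb, Sdhd, Cox5a, Atp5a1, Atp5b, Atp5d and Atp5g3. A further 12 that were lower at day 2, Ndufs7, Sdhc, Uqcrq and Atp5g1 among them, passed in neither direction at day 16. In the other direction, 8 genes that had not passed at day 2 were higher at day 16: Cox4i1, Cox6c, Cox8a, Atp5e, Ndufa7, Ndufa10, Ndufb3 and Ndufs6. With the upper quartile rescaling, which shifted the median of all genes by 0.105, 21 were lower and 20 higher (30.7% and 38.4% of all tested genes). With quantile normalization 22 were lower and 20 higher (32.1% and 36.2%), and without the replicate 1 libraries 23 were higher. By the median over genes, replicate 1 was the lowest library of complex IV and of ATP synthase at every starved time point, and at days 14 and 16 also of complexes I, II and III. At day 16 the median difference of complex IV from control was -0.106 in replicate 1, 0.684 in replicate 2 and 0.574 in replicate 3, that of ATP synthase was -0.304, 0.085 and 0.075, and that of complex II was -0.265, -0.002 and -0.044. At day 2 that of complex IV was -0.223, 0.027 and 0.037. In every group, replicate 1 also had the most genes above 0 and the lowest upper quartile of FPKM over the tested genes. At day 16 it had 10542 genes above 0, against 10155 and 10157 in replicates 2 and 3. Its upper quartile there was 39.12 FPKM, against 42.29 and 41.66. Whatever sets replicate 1 apart was not tested.

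Genes that build or supply the chain were taken from separate lists. Of 37 tested assembly factors, 17 were lower at day 2 and 0 higher in the limma fit, also at an unadjusted p under 0.05. Of all tested genes, 30.7% were called lower and 30% higher at day 2. A slope that rose passed in 9 and one that fell in 2, the first share close to the 26.6% of all tested genes and the second below their 28.9%. Uqcc2, an assembly factor of complex III, fell from 288 ± 42.6 FPKM (SD, n = 3) to 90.5 ± 4.85 and stayed at 87.3 ± 11.3 at day 16, whereas Atpaf2, which helps build F1, was 11.9 ± 1.14, 12.1 ± 1.49 and 21.4 ± 1.63. Of 10 tested genes of coenzyme Q synthesis and binding, 5 were lower at day 2 and 1, Coq10a, was higher (background 30.7% and 30%). Of 7 carriers and pores, 4 were lower and 0 higher with limma, the same at an unadjusted p, against the same background. Slc25a5, an exchanger of ADP and ATP, fell from 423 ± 20.1 to 140 ± 6.27 and 95.3 ± 9.76 FPKM at days 2 and 16, while Slc25a4, its close relative, was 811 ± 34.6, 717 ± 31.6 and 785 ± 63.4. All 5 genes taken as a gauge of the amount of mitochondria (Cs, Tomm20, Tomm40, Timm23 and Immt) were lower at day 2, and 4 of them at day 16, when 30.7% and 35% of all tested genes were lower. How far the subunits followed the amount of mitochondria was not tested.

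Of 9 tested regulators, 5 were lower and 2 higher at day 2, and 7 were lower and 1 higher at day 16. Of all tested genes, 30.7% and 30% were lower and higher at day 2, and 35% and 32.4% at day 16. Nrf1, which encodes NRF-1, was 15.2 ± 2.01 FPKM in control, 7.54 ± 1.02 at day 2 and 7.46 ± 1.06 at day 16 (day 2 log2 change -0.92, limma adjusted p = 4.58e-05). Pprc1, a coactivator tied to growth, went from 19 ± 0.9 to 11.2 ± 0.615 and 10.4 ± 0.481 FPKM. Gabpa and Gabpb1, the subunits of GABP, were lower at both times, and Esrra, which encodes ERR alpha, was higher at day 2 (21.6 ± 0.93 and 26.6 ± 1.71 FPKM). At day 16 Esrra was at 19.3 ± 0.393 FPKM and did not pass (log2 change -0.15, limma adjusted p = 0.248). Myc went from 13.4 ± 0.737 FPKM in control to 8.23 ± 1.03 at day 2 and 3.38 ± 0.43 at day 16. Hif1a, higher at both times, was 17.3 ± 1.72, 23.6 ± 2.61 and 28.3 ± 2.71. The coactivators Ppargc1a and Ppargc1b did not reach a mean of 1 FPKM. Of 8 genes of mitochondrial DNA transcription and its RNA, 5 were lower at day 2 and 0 higher with limma, unadjusted p included, against that background of 30.7% and 30%. Tfam, which packs mitochondrial DNA, was 23.8 ± 1.39 FPKM in control, 13.6 ± 1.29 at day 2 and 14.5 ± 1.46 at day 16.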

How the data were processed

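Total RNA of 30 libraries was sequenced. Per the submitters' processing notes, TopHat2 2.1.1, Cufflinks and Cuffnorm 2.2.1 were used with build rn6, and the authors deposited FPKM for 17353 gene symbols. Annotation and scaling across libraries are not given in the sources used here. The table has no counts, so depth is unknown and no counting interval is given. All 30 columns matched a sample.

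Values were analysed as log2(FPKM + 1) with limma 3.58.1 in R 4.3.3 (empirical Bayes with a mean-variance trend, two-sided). The 8940 genes with a mean of at least 1 FPKM were fitted together, and p was adjusted by Benjamini-Hochberg over them (threshold 0.05). Contrasts came from 1 fit of 10 group means. Slopes came from the 27 starved libraries with day as a number. The filter is on the mean of all libraries. Folds on this scale understate changes of low genes. The code was tested on simulated data.

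The genes and lists were chosen with earlier results of these data known. Named genes were a fixed set of familiar subunits plus, per complex, the 2 largest rises and falls at day 2 and in slope, and the least changed gene at day 2. Of the fixed set, 1 gene is not reported here, though it stays in the counts. Labels call the replicates biological. The correlation across all tested genes of deviations of same-numbered libraries was 0.592, 0.209 and 0.188 (replicates 1, 2 and 3) for day 2 and control. For day 16 and control it was 0.44, 0.135 and 0.357. Across the tested genes of this report it was 0.801, -0.031 and 0.43, and 0.726, -0.314 and -0.306. Over these genes only replicate 1 was positive in both comparisons. The labels do not say what a number shares, so the pairing is not settled, and the main fits did not use it. Alternatives changed the pseudocount, filter, scaling, trend, block, form of day and libraries left out. Promoters came from RefSeq (GRCr8), which is not the authors' build.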

Additional observations from a re-analysis of the deposited data

How the results depend on the processing

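In all, 52 alternative settings were run. Of 93 gene results that passed, 65 passed in every alternative run for them and 28 missed the threshold in at least 1, and of 17 that had not passed, 7 passed in none. With quantile normalization, 10, 14 and 20 genes were higher than control at days 2, 8 and 16, 1 was lower at day 16 than at day 8, and 4 had a falling slope. The matching shares of all tested genes were 33.2%, 36.7%, 36.2%, 15.8% and 27.3%. With rescaling by the upper quartile, 20 were higher at day 16 than in control and 30 than at day 8 (38.4% and 17.5% of all tested genes). The median change at day 16 against control turned to 0.022. With rescaling to equal sums, 2 were lower and 12 higher at day 8 against day 2, 2 lower and 5 higher at day 16 against day 8, and 7 had a falling slope. The matching shares of all tested genes were 13.1% and 23.3%, 27.5% and 8.18%, and 36.4%. Cox6c at day 2 turned to 0.097 and 0.168, and Uqcr11 to 0.058 and 0.175, with upper quartile rescaling and quantile normalization. Why scaling moved these values was not tested.

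With the replicate number as a block, 31 genes were higher at day 16 than at day 8. The share of all tested genes was not computed for that fit. For these 2 days the correlations of same-numbered libraries were 0.234, 0.049 and 0.143 over all tested genes. Over the genes of this report they were 0.81, -0.024 and 0.028, so here too the pairing is not settled. For day 2 and day 16 against control, the block made the calls of Cox7a2 and Sdha given above and changed no other call named here.

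Leaving out 1 library or 1 replicate number gave these ranges, for which shares over all tested genes were not computed. At day 2, 23 to 38 genes were lower and 3 to 7 higher. At day 8, 3 to 10 were higher. At day 16, 11 to 23 were higher and the median was -0.18 to 0.012, the last without replicate 1. Day 8 against day 2 had 2 to 9 lower and 0 to 12 higher, and day 16 against day 8 had 0 to 1 lower and 5 to 28 higher. Between 15 and 49 genes differed among the starved groups. Day 2 changes ran from -0.065 to 0.139 for Cox8a, -0.164 to 0.122 for Cox6c and -0.101 to 0.039 for Uqcr11. Day 16 changes ran from -0.069 to 0.216 for Ndufv3 and -0.306 to 0.022 for Uqcrq. Dropping a replicate number leaves 2 libraries a group, which lowers the power.

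With FPKM only, read depth and counting error are unknown, and 3 libraries a group limit the precision. Genes near 0, such as Cox6a2, depend on the pseudocount.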
